A study of Mus musculus with 95 samples.

Results

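The 38 cell division genes described here were found by symbol among the 20638 genes of an RNA-seq count table of mouse pancreatic islets, and all 38 were in it. They fall into 13 genes of DNA replication and 25 genes of mitosis. The islets, clusters of hormone-secreting cells, were taken from Diversity Outbred founder mice, and all were fed a high-fat, high-sugar diet with 45% fat per the labels. The labels put neither a strain nor a sex on a library, so the 95 libraries form no groups and no comparison between groups was tested. Libraries are called by the number in their label, from 1 to 100 with 5 numbers missing. The genes were described within the 10 libraries numbered 91-100 and within the other 85, numbered 1 to 90. That split follows the numbers alone and carries no condition, and nothing in the labels says that each library came from its own animal.

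A dividing cell copies its DNA and then separates the copies, and it makes the proteins for these steps in waves. Before and during DNA synthesis the E2F transcription factors switch on the replication genes, among them the subunits of the Mcm helicase that unwinds DNA. Later, complexes that bind the CHR element, together with NF-Y at CCAAT boxes, switch on the mitosis genes, which build the spindle, guard chromosome attachment and split the cell. Endocrine cells of the adult islet divide rarely, and bulk islet RNA also holds transcripts of the leukocytes, vessels and connective tissue in the preparation, so fewer cells of a type and less RNA per cell cannot be told apart.

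The promoters of 5 members show the sequence elements that the replication and the mitosis genes are known for. Each runs from 250 bases before the RefSeq start site to 50 bases from it, on the gene's own strand of GRCm38.p6. Capitals mark matches to 3 motifs on either strand: the E2F core (TTTGGCGC, TTTCCCGC or TTTCGCGC), the CHR (TTTGAA or TTTAAA, the second of which reads the same on both strands) and the CCAAT box (CCAAT). Mcm5 (chr8:75109259-75109558, plus strand) and Mcm6 (chr1:128359656-128359955, minus strand) stand for replication. Ccnb1 (chr13:100786437-100786736, minus strand), Cdc20 (chr4:118437294-118437593, minus strand) and Mki67 (chr7:135716330-135716629, minus strand) stand for mitosis.
Mcm5: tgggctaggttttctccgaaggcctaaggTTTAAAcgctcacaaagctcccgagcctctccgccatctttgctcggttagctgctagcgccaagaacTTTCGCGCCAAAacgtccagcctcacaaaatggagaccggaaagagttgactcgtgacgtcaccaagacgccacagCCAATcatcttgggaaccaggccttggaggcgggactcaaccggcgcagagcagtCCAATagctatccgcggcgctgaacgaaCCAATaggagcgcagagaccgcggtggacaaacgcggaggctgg
Mcm6: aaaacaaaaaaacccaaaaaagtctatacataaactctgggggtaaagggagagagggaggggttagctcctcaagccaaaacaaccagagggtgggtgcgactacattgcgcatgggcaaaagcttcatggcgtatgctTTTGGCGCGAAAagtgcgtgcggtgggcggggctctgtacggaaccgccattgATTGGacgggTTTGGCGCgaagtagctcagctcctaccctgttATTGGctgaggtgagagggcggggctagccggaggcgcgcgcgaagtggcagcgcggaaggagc
Ccnb1: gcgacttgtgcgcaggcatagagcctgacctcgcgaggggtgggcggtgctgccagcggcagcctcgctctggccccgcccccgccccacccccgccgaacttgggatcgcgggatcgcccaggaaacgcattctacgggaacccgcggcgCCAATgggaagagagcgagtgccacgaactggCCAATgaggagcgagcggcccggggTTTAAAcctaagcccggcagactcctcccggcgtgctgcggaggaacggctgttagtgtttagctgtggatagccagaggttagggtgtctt
Cdc20: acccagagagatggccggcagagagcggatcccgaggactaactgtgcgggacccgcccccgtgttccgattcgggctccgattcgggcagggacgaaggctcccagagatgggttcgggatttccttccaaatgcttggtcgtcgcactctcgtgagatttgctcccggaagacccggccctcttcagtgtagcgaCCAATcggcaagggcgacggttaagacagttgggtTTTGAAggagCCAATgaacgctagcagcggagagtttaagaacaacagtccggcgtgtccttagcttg
Mki67: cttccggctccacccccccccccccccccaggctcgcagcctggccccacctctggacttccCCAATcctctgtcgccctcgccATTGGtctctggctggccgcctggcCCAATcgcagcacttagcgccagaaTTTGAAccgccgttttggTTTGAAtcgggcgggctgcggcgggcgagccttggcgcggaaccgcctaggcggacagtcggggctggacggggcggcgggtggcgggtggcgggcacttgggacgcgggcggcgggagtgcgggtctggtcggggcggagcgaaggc
In Mcm5 the run of capitals that begins at position -153 holds 2 overlapping E2F core matches, TTTCGCGC on the gene's strand and TTTGGCGC on the other, and the window also holds 1 CHR and 3 CCAAT boxes. Mcm6 has such an overlapping pair at -110 and -106 and a further E2F core match at -47. Ccnb1, Cdc20 and Mki67 have 0 E2F core matches, and each has at least 1 CHR and 2 CCAAT boxes.

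A RefSeq promoter was at hand for 32 of the 38 members, 12 of replication and 20 of mitosis; Foxm1, Kif20a, Mcm4, Ccna2, Aurkb and Tpx2 had no entry. The E2F core was in 5 of 12 replication promoters (41.7%), those of Mcm3, Mcm5, Mcm6, Mcm7 and Cdc6, and in 1 of 20 mitosis promoters (5.0%), that of Cdk1. It was in 573 of the 27025 genes with a promoter in the table (2.12%). The CHR was in 18 of 20 mitosis promoters (90.0%) and 4 of 12 replication promoters (33.3%), beside 30.6% of all genes. A CHR and a CCAAT box occurred together in 17 of 20 mitosis promoters (85.0%), in 4 of 12 replication promoters (33.3%) and in 13.4% of all genes. The CCAAT box by itself hardly set the lists apart: it was in 18 of 20 mitosis promoters (90.0%) and 9 of 12 replication promoters (75.0%), beside 41.1% of all genes. The mitosis genes without a CHR in this window were Nusap1 and Bub1, and the windows of E2f1, Tyms and Nusap1 held none of the 3 motifs. The E2f1 window (154569377 to 154569676, minus strand) lies wholly inside the gene as annotated, which reaches to 154569892. The windows of Cdc6 and Mcm7 also lie inside their annotated genes. For E2f1, Cdc6 and Mcm7 the sequence around the annotated gene start was therefore not searched. A match is a stretch of letters and was not tested as a binding site.

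**Figure D1:**
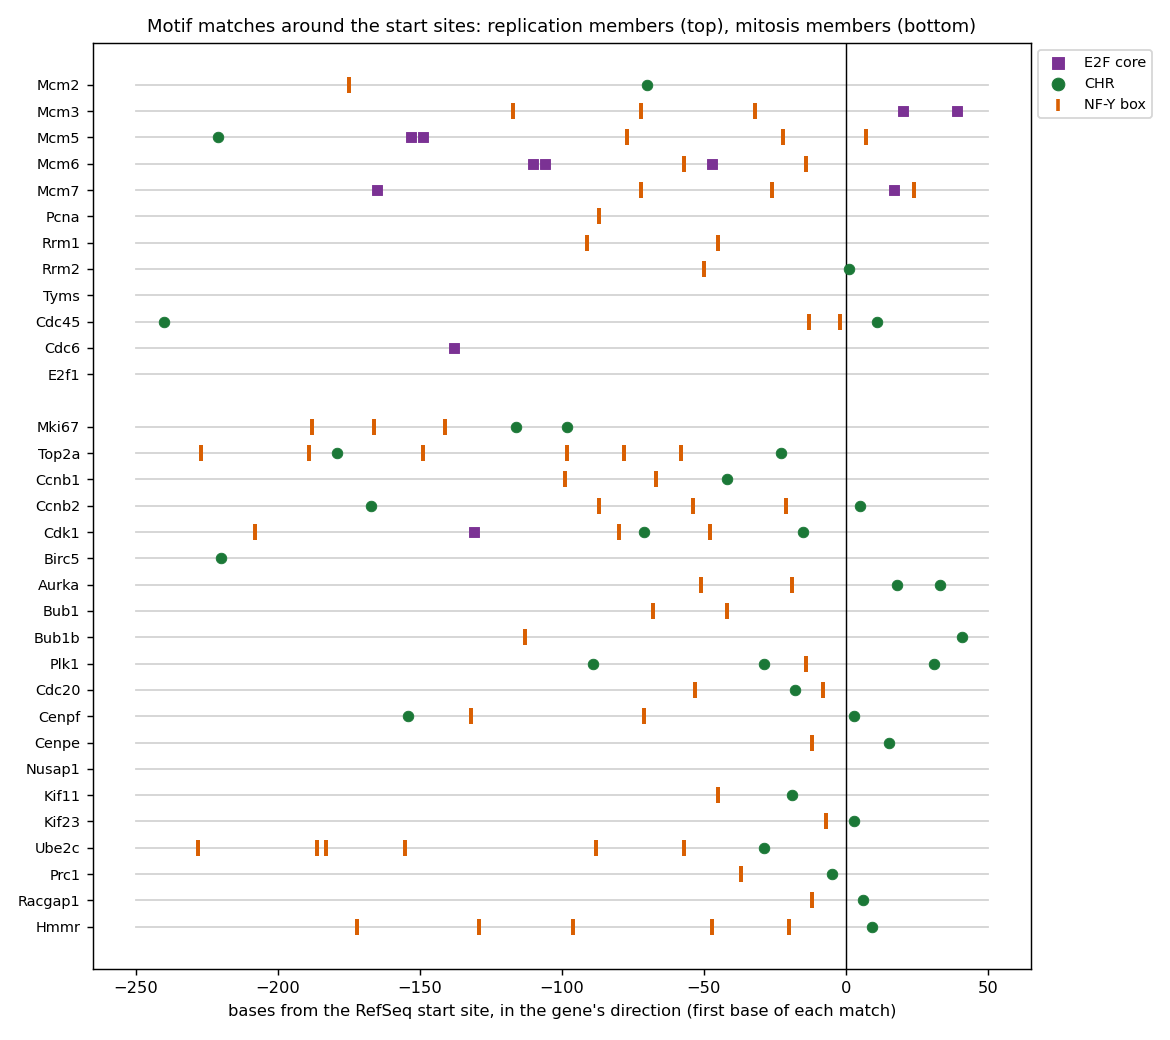
Positions of motif matches around the RefSeq start sites of the 32 members with a promoter entry, in bases in the gene's direction, with replication members at the top and mitosis members at the bottom (for Mcm7 and Prc1, the start site listed ahead of the other). Squares (E2F core) lie in 5 of 12 replication rows, circles (CHR) in 18 of 20 mitosis rows, and bars are NF-Y (CCAAT) boxes.

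Total counts ran from 20566736 to 32290848 in libraries 91-100 and from 16411809 to 34357253 in libraries 1 to 90. Levels are given as CPM, which are counts scaled to the same library size, with sizes corrected by edgeR's TMM method (a trimmed mean over genes). The insulin gene Ins2 had 33240 CPM or more in every library. Libraries 91-100 had higher medians of several other cells' transcripts. Ptprc, the gene of the pan-leukocyte protein CD45, had 13.8 to 509 CPM there with a median of 138, against 2.01 to 44.4 with a median of 4.96 in libraries 1 to 90. All 3 pan-leukocyte, 6 T cell, 6 B cell and 6 macrophage markers, 6 of 7 fibroblast, 8 of 9 acinar and 4 of 6 duct markers had medians at least 2-fold higher in libraries 91-100, against 0 of 6 endothelial, 0 of 8 beta cell and 0 of 5 alpha cell markers. The share over all genes kept by a filter on low counts was 12.3%. All 8 beta cell markers had lower medians in libraries 91-100, at ratios of 0.58 to 0.927. Summed over each list, T cell markers ran from 5.53 to 437 CPM in libraries 91-100 and from 0.634 to 32.0 in libraries 1 to 90, where the T cell gene Cd3e was at 0 in 21 libraries. B cell markers summed to 13.9 to 901 CPM in libraries 91-100 and to 3.07 to 98.2 in libraries 1 to 90, and macrophage markers to 52.4 to 567 CPM in libraries 91-100 and to 28.3 to 178 in libraries 1 to 90. Fibroblast markers summed to 141 to 812 CPM in libraries 91-100 and to 43.8 to 674 in libraries 1 to 90. Acinar markers summed to 19210 to 405700 CPM in libraries 91-100, inside the 1428 to 571900 of libraries 1 to 90. Duct markers summed to 225 to 948 CPM in libraries 91-100, inside the 198 to 1687 of libraries 1 to 90. The part of these cells in the values below was not tested.

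The Mcm genes, which encode the 6 subunits of the replicative helicase, all had a higher median in libraries 91-100, but by ratios from 1.38 (Mcm4) to 5.58 (Mcm3). Past 2-fold were 3 of the 6, against 12.3% of all kept genes. Mcm2, Mcm3, Mcm5, Mcm6 and Mcm7 put the 10 libraries in nearly the same order, with Spearman's rank correlations (rho) of 0.952 to 1.0 between them, and Mcm4 had rhos of 0.661 to 0.806 with these. Mcm3 (chromosome 1, 20802968 to 20820312, GRCm38) had 2.63 to 58.4 CPM and a median of 17.8 in libraries 91-100, against 1.45 to 11.0 with a median of 3.20 in libraries 1 to 90. The ratio of these medians, 5.58, was the largest of the 13 replication genes, and 6 of the 10 libraries lay above the highest of the other 85. Mcm5 (chromosome 8, 75109528 to 75128439), whose promoter with its E2F core pair is shown above, had 3.85 to 56.3 CPM with a median of 15.3 in libraries 91-100, against 1.62 to 11.1 with a median of 3.69 in libraries 1 to 90. Every one of the 10 libraries was above the median of libraries 1 to 90, and 5 were above their highest value. Mcm6 (chromosome 1, 128331590 to 128359664) had 7.48 to 80.2 CPM with a median of 26.2 in libraries 91-100, against 1.61 to 19.5 with a median of 9.11 in libraries 1 to 90.

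The other 3 helicase genes differed less between the sets. Mcm2 had a median of 16.1 CPM (9.38 to 40.8) in libraries 91-100 and 11.7 CPM (7.11 to 20.5) in libraries 1 to 90. Mcm7 (chromosome 5, 138164583 to 138172422) had 11.2 to 47.4 CPM with a median of 20.5 in libraries 91-100, against 8.11 to 15.9 with a median of 12.47 in libraries 1 to 90. In libraries 1 to 90 Mcm7 was the steadiest of the replication genes, with 0.39 log2 units between its 10th and 90th percentiles. Mcm4 (chromosome 16, 15623897 to 15637400) spanned 2.01 log2 units there, the widest of them. It had 15.2 to 49.0 CPM with a median of 25.1 in libraries 91-100, against a median of 18.1 in libraries 1 to 90, with library 73 lowest at 6.56 and library 13 highest at 51.4, so that 0 of the 10 libraries lay above the highest of the other 85. Of the reference 31-base words of Mcm7, 24.4% also occur in another gene's transcripts, so its counts are less certain than those of Mcm3 or Mcm5.

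**Figure D2:**
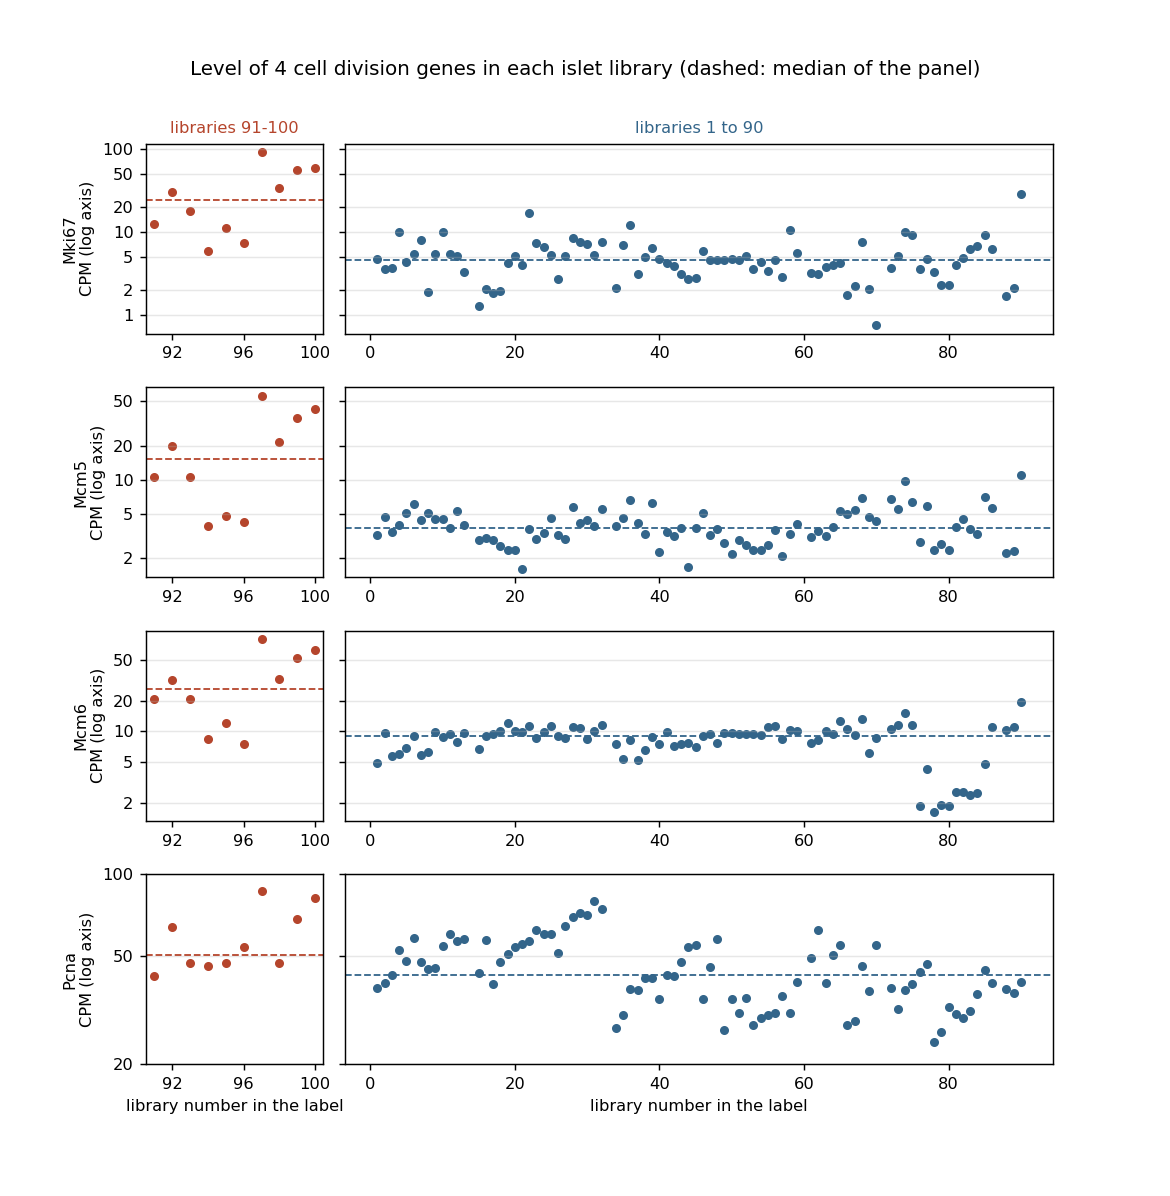
Levels of Mki67, Mcm5, Mcm6 and Pcna in CPM (log axis) against library number, with libraries 91-100 on the left and libraries 1 to 90 on the right, 1 point per library and dashed lines at the medians (for Mki67, 24.4 CPM in libraries 91-100 and 4.61 in libraries 1 to 90). Library 97 is the highest on the left in all 4 genes, and Mcm6 has its 10 lowest values of the right panel in libraries 76 to 85.

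The remaining replication genes work with the helicase or feed it. Pcna (chromosome 2, 132249162 to 132253314), the sliding clamp that holds polymerases on DNA, had the highest level per length of all 38 genes, with medians of 21.1 CPM per kb of exon in libraries 91-100 and 17.7 CPM per kb in libraries 1 to 90. It had 42.3 to 86.6 CPM with a median of 50.6 in libraries 91-100, against 24.1 to 79.6 (libraries 78 and 31) and a median of 42.5 in libraries 1 to 90, and the sets overlapped over most of their ranges. Cdc6, which helps load the helicase at origins, had 0.473 to 8.24 CPM with a median of 1.95 in libraries 91-100, against a median of 0.436 CPM and a highest value of 1.78 in libraries 1 to 90, where library 67 was at 0 (3 counts there would be 0.114 CPM). Cdc45, a partner of the helicase, had medians of 3.81 CPM in libraries 91-100 and 2.46 in libraries 1 to 90. Pcna and Cdc6 share 23.3% and 8.78% of their 31-base words with the single other gene that shares the most.

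Genes of nucleotide supply also differed among themselves. Rrm2, the regulated subunit of ribonucleotide reductase, had 3.66 to 31.8 CPM with a median of 10.4 in libraries 91-100, against 1.78 to 9.97 with a median of 3.45 in libraries 1 to 90. Rrm1, the large subunit, had medians of 25.7 CPM in libraries 91-100 and 17.5 in libraries 1 to 90. Tyms, thymidylate synthase, had 7.63 to 19.0 CPM with a median of 11.2 in libraries 91-100, against 6.85 to 14.6 with a median of 10.0 in libraries 1 to 90. E2f1 (chromosome 2, 154559407 to 154569892), a transcription factor of the replication genes, was the only member of the 38 with a lower median in libraries 91-100. It had 8.33 to 16.1 CPM with a median of 11.9 there, against 5.85 to 31.6 (libraries 26 and 90) and a median of 14.1 in libraries 1 to 90, and 2 of the 10 libraries were above that median.

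The proliferation marker Mki67, which coats mitotic chromosomes, and Top2a, which encodes a DNA-untangling enzyme, both had medians more than 5-fold higher in libraries 91-100. Mki67 (chromosome 7, 135689788 to 135716379) had a median of 24.4 CPM in libraries 91-100, with 5.94 in library 94 and 92.2 in library 97 as the extremes. In libraries 1 to 90 its median was 4.61 CPM, its lowest value 0.753 in library 70 and its highest 28.6 in library 90, followed by 16.8 in library 22. The medians stood 5.28-fold apart, and 2.69-fold without libraries 97, 99 and 100. Top2a (chromosome 11, 98992943 to 99024189) had 2.90 to 75.8 CPM with a median of 21.3 in libraries 91-100, against 0.872 to 23.4 with a median of 4.22 in libraries 1 to 90, a ratio of medians of 5.03. For both genes 5 of the 10 libraries lay above all of the other 85.

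The kinase Cdk1 and the cyclins that activate it had medians of 2.60 to 7.09 CPM in libraries 91-100 and of 2.19 CPM or less in libraries 1 to 90. Cdk1 had 0.675 to 13.4 CPM with a median of 3.87 in libraries 91-100, against 0.151 to 4.92 with a median of 0.971 in libraries 1 to 90. Ccnb1 (cyclin B1) had 0.742 to 13.96 CPM with a median of 3.65 in libraries 91-100, against 0.107 to 5.57 with a median of 0.878 in libraries 1 to 90. Its relative Ccnb2 had medians of 2.60 CPM in libraries 91-100 and 0.679 in libraries 1 to 90, and Ccna2 (cyclin A2) had 7.09 CPM in libraries 91-100 and 2.19 in libraries 1 to 90. Foxm1, a transcription factor of mitosis genes, had 3.24 to 16.0 CPM with a median of 5.55 in libraries 91-100, against 1.56 to 6.92 with a median of 3.40 in libraries 1 to 90. Ccnb1 shares 22.9% of its 31-base words with a processed copy, and 12.5% of the exon length of Ccna2 overlaps a gene on the other strand, whose reads cannot be told apart where strand use is not known.

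Among the mitotic kinases and the chromosomal passenger complex the ratios of medians were both the largest and among the smallest. Aurkb (chromosome 11, 69045647 to 69051664), the passenger complex kinase, had 0.203 to 10.7 CPM with a median of 3.22 in libraries 91-100, against 0.0386 to 1.96 with a median of 0.478 in libraries 1 to 90, a ratio of 6.73. Birc5, survivin, of the same complex, had 0.407 to 12.45 CPM with a median of 3.68 in libraries 91-100, against 0.0578 to 3.92 with a median of 0.569 in libraries 1 to 90. The spindle pole kinase Aurka had 1.17 to 8.18 CPM with a median of 3.51 in libraries 91-100, against 0.742 to 4.92 with a median of 2.06 in libraries 1 to 90, a ratio of 1.70. Plk1, which acts at poles and kinetochores, had medians of 3.28 CPM in libraries 91-100 and 0.734 in libraries 1 to 90. Of the Plk1 words of 31 bases, 14.8% are shared with a single other gene.

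Genes of the spindle checkpoint and of the anaphase-promoting complex it restrains had medians of 1.93 to 5.06 CPM in libraries 91-100 and of 1.12 CPM or less in libraries 1 to 90. Bub1 (chromosome 2, 127801122 to 127831865), a checkpoint kinase, had 0.443 to 7.08 CPM with a median of 1.93 in libraries 91-100, against 0 in library 88 (3 counts would be 0.105 CPM) to 1.65 with a median of 0.358 in libraries 1 to 90. At a median of 9 counts per library it also had the widest range of the mitosis genes there, 2.16 log2 units between those percentiles. Its relative Bub1b had medians of 4.32 CPM in libraries 91-100 and 0.760 in libraries 1 to 90. Cdc20 (chromosome 4, 118432901 to 118437352), the activator of the anaphase-promoting complex, had the highest level per length of the mitosis genes in libraries 91-100, a median of 2.71 CPM per kb, against 0.599 CPM per kb in libraries 1 to 90. It had 1.15 to 18.1 CPM with a median of 5.06 in libraries 91-100, against 0.275 to 7.18 with a median of 1.12 in libraries 1 to 90. Ube2c, the ubiquitin carrier of that complex, had medians of 3.99 CPM in libraries 91-100 and 1.06 in libraries 1 to 90. Of the Cdc20 words 23.4% are shared with a single other gene, and 22.8% of the Ube2c exon length overlaps a gene on the other strand.

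Kinetochore and spindle genes had ratios of medians from 2.43 (Cenpf) to 4.43 (Tpx2). Cenpf, a kinetochore protein, had medians of 3.24 CPM in libraries 91-100 and 1.33 in libraries 1 to 90, and Cenpe, the kinetochore motor, had 3.44 CPM in libraries 91-100 and 0.846 in libraries 1 to 90, where library 69 was at 0 (3 counts there would be 0.173 CPM). Tpx2, a spindle assembly factor, had 1.01 to 18.9 CPM with a median of 5.69 in libraries 91-100, against 0.261 to 7.18 with a median of 1.29 in libraries 1 to 90. Kif11, the motor that pushes the poles apart, had medians of 5.00 CPM in libraries 91-100 and 1.41 in libraries 1 to 90. Nusap1, a microtubule-binding spindle protein, had medians of 3.64 CPM in libraries 91-100 and 1.04 in libraries 1 to 90, and Hmmr, another spindle-associated protein, had 3.29 CPM in libraries 91-100 and 1.10 in libraries 1 to 90. The Hmmr ratio, 3.00, was 1.08 without libraries 97, 99 and 100.

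Of the genes of the central spindle and cell cleavage, Racgap1 (chromosome 15, 99620496 to 99651656) had the smallest ratio of the mitosis genes, 1.35. It had 9.27 to 28.4 CPM with a median of 14.1 in libraries 91-100, against 4.28 to 19.3 with a median of 10.4 in libraries 1 to 90, where its 1.47 CPM per kb was the highest of the mitosis genes. Its partner Kif23 had 0.540 to 15.1 CPM with a median of 4.44 in libraries 91-100, against 0.203 to 2.35 with a median of 1.08 in libraries 1 to 90, and 7 of the 10 libraries lay above all of the other 85. Kif20a (chromosome 18, 34624624 to 34633265), a motor of the same structure, had 1.80 to 16.4 CPM with a median of 4.95 in libraries 91-100, against 1.20 to 11.3 with a median of 2.37 in libraries 1 to 90. Its range in libraries 1 to 90, 0.98 log2 units, was the narrowest of the mitosis genes, and 29.3% of its exon length overlaps a gene on the other strand. Prc1, which bundles central spindle microtubules, had medians of 5.24 CPM in libraries 91-100 and 2.19 in libraries 1 to 90, with 11.1% of its exon length in such an overlap.

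**Figure D3:**
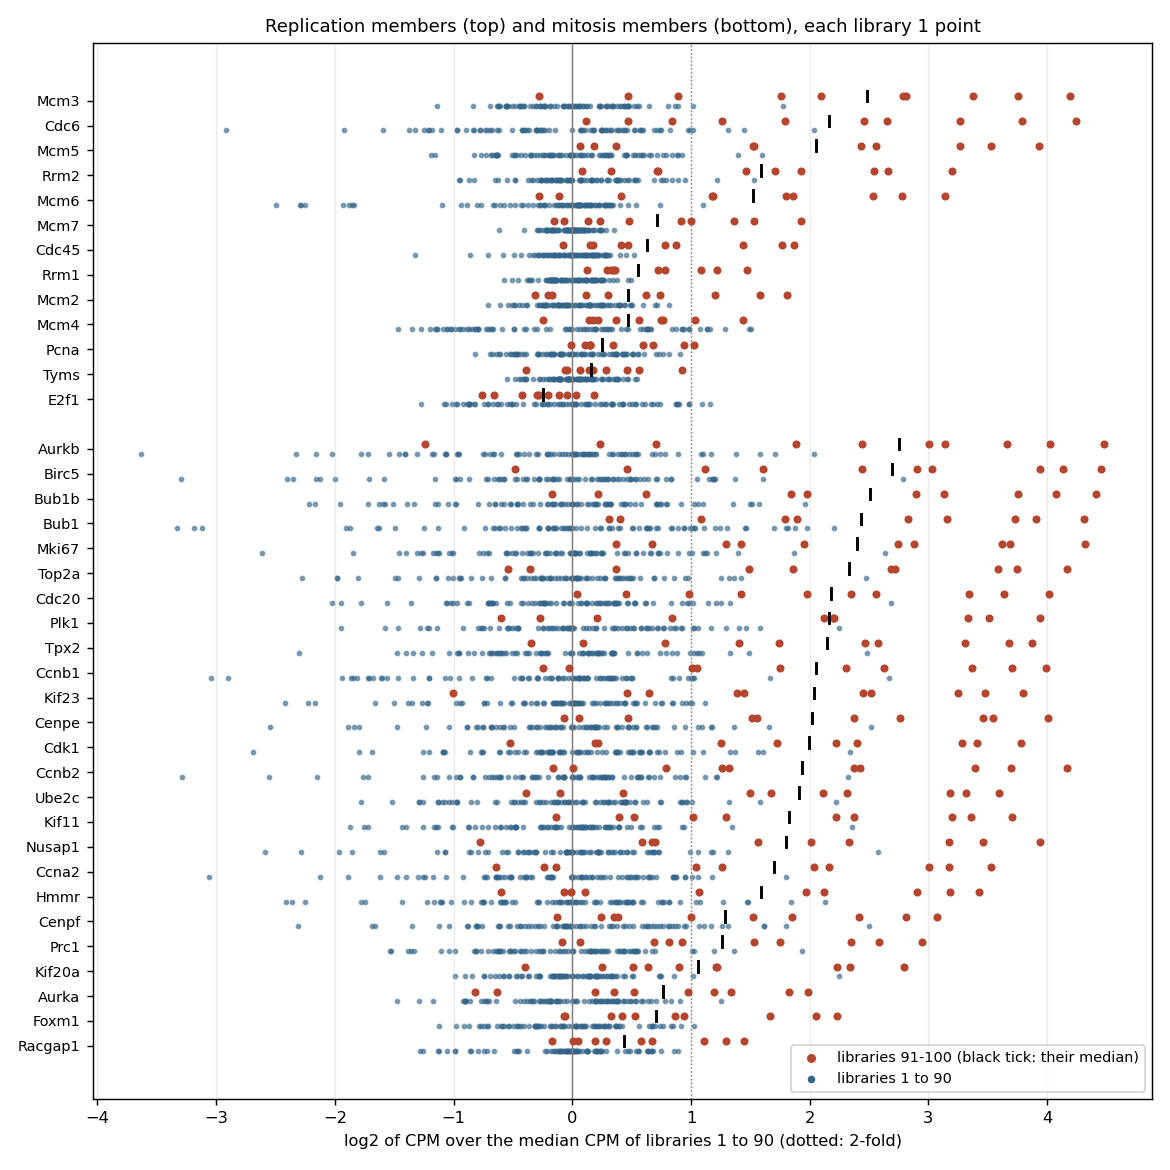
Each library's level of each member as log2 of its CPM over the gene's median CPM in libraries 1 to 90, with replication members at the top and mitosis members at the bottom. Red points are libraries 91-100 with their median as a black tick, blue points below them are libraries 1 to 90, and the dotted line marks 2-fold. The ticks of 5 of 13 replication genes and 22 of 25 mitosis genes lie right of that line; the 3 values at 0 (Cdc6, Bub1 and Cenpe, 1 library each) are not drawn.

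Counted over the lists, 27 of the 38 members had a median at least 2-fold higher in libraries 91-100, against 12.3% of all 15766 genes kept by a filter on low counts. These were 5 of 13 replication genes (Mcm3, Mcm5, Mcm6, Cdc6 and Rrm2) and 22 of 25 mitosis genes, all but Aurka, Foxm1 and Racgap1. The median ratio was 1.55 over the replication genes, from 0.844 (E2f1) to 5.58 (Mcm3), and 3.99 over the mitosis genes, from 1.35 (Racgap1) to 6.73 (Aurkb), beside 0.971 over all kept genes. Of the 5 replication genes past 2-fold, 4 have an E2F core in the promoter window and Rrm2 has none; Mcm7, the other replication gene with a core, had a ratio of 1.64. In 7 of the 38 members every one of the 10 libraries was above the median of libraries 1 to 90 (Mcm5, Rrm1, Rrm2, Cdc6, Mki67, Bub1 and Cdc20). That share was close to the 15.3% of all kept genes. Without library 94 every library left was above that median in 19 members, against 17.9% of all kept genes. Without libraries 97, 99 and 100, which held the highest values, 20 members were past 2-fold, against 11.0% of all kept genes. Far fewer members were past 2-fold with the deposited variance-stabilised values, a scale that compresses low levels, as counted in the closing section. All 38 members passed the filter over the 95 libraries. Over libraries 1 to 90 alone Cdc6, Aurkb and Bub1 did not. These genes entered only through libraries 91-100, where they were higher. Their place among the 27, and that of Cdc6 and Bub1 among the 7, is thus partly set by the filter.

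Variation between libraries was measured as edgeR's biological coefficient of variation, which is a gene's relative spread once counting noise is taken off. Over all 95 libraries 28 of the 38 members were above 50%, 6 of replication and 22 of mitosis, against 24.2% of all kept genes. Cdc6, Aurkb and Bub1 were among the 28 but did not pass the filter over libraries 1 to 90 alone. Their place among the 28 is thus partly set by the filter. Within libraries 1 to 90, 12 of the 35 members kept there were above 50%, against 19.6% of all 15419 genes kept. These 12 were Mcm4 (51.8%) and 11 mitosis genes. The lowest of all was Mcm7 at 11.1%, and the median over all genes kept there was 23.0%. The count of 12 rested on library 90: without it 4 members were above 50%, against 19.0% of all genes.

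Library 90 was the highest of libraries 1 to 90 in 29 of the 38 members. How many of all kept genes were highest in library 90 was not counted, so the 29 cannot be read as particular to the members. Its mitosis genes summed to 190 CPM, the highest of the 85, and its replication genes to 212 CPM, next to the 222 of library 32. Library 90 also had the highest macrophage and fibroblast marker sums of the 85, 178 and 674 CPM, with Csf1r, the macrophage growth factor receptor, at 42.6 CPM and the collagen gene Col3a1 at 253 CPM. Its pan-leukocyte sum, 87.1 CPM against a median of 18.5 in libraries 1 to 90, was the 4th highest, with Ptprc at 26.0 CPM. Its duct marker sum, 1282 CPM against a median of 337, was the 2nd highest. Aldh1a3, an aldehyde dehydrogenase gene, was at 215 CPM against a median of 4.17, the highest of the 85. The next highest Aldh1a3 levels were those of libraries 86, 89 and 88, at 102, 97.9 and 57.6 CPM. The mitosis sums of libraries 86, 89 and 88 ranked 35th, 83rd and 85th of the 85, so high Aldh1a3 was not particular to library 90. Of library 90 itself, the B cell markers were mixed. The B cell marker sum of library 90, 5.53 CPM, ranked 74th of 85, but the order turned on Cd79a, the lowest of the 85 at 1.31 CPM: the other 5 B cell markers summed to 4.22 CPM and ranked 21st, against a median of 1.30 CPM. The part of those cells in the values of library 90 was not tested.

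Summed by list, replication and mitosis genes kept different proportions in the 2 sets of libraries. The replication genes summed to 150 to 550 CPM (libraries 94 and 97) and a median of 234 in libraries 91-100, against 105 to 222 with a median of 151 in libraries 1 to 90. The mitosis genes summed to 43.5 to 512 CPM with a median of 151 in libraries 91-100, against 24.1 to 190 with a median of 47.6 in libraries 1 to 90. The ratio of the replication sum to the mitosis sum had a median of 1.61 in libraries 91-100 (1.07 in library 97, 3.45 in library 94) and of 3.10 in libraries 1 to 90 (1.12 in library 90, 5.99 in library 13). The replication sum leans on its most abundant genes, Pcna, Mcm4, Rrm1 and E2f1, with medians of 42.5, 18.1, 17.5 and 14.1 CPM in libraries 1 to 90. Of these, Pcna and Mcm4 had median rhos of only 0.0301 and -0.00104 with the mitosis genes there. In library 13 Pcna was at 57.8 CPM and Mcm4 at 51.4 CPM. Library 70 had the lowest Mki67 of all, 0.753 CPM, beside 4.31 CPM of Mcm5, above that gene's median in libraries 1 to 90.

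Along the library numbers of libraries 1 to 90, the levels of the members were also described in blocks. In blocks of 10 library numbers, the highest block median stood a median of 2.02-fold above the lowest over the mitosis genes. Over the replication genes it was 1.75-fold. These folds were computed for the members alone and not for all kept genes, so they cannot be read as particular to the members. The 10 lowest Mcm6 values of the 85 were those of libraries 76 to 85, from 1.61 CPM in library 78 to 4.77 in library 85, against 4.93 CPM or more in each of the other 75. That run was singled out after its values were seen and has no test. In the same 10 libraries Mcm7 had 11.9 to 14.7 CPM and Mcm5 2.35 to 7.01 CPM, within the ranges of the other 75, and they held 0 of the 10 lowest values of Mcm3 and Mcm7, 1 each of Mcm4 and Mcm5, 4 of Mcm2 and 6 of E2f1. Of the replication genes Mcm4 had its highest block median in libraries 21 to 30, 30.6 CPM, and its lowest in libraries 51 to 60, 9.39 CPM, a 3.27-fold difference that was the largest of the 13. Pcna had its highest and lowest blocks in the same places, 61.4 and 30.9 CPM, while Mcm7 stayed within 1.20-fold. E2f1 had its highest median in libraries 41 to 50, 19.3 CPM, and its lowest in libraries 71 to 80, 7.78 CPM. Among the mitosis genes the highest blocks stood 1.36-fold (Ccnb2) to 2.68-fold (Ccnb1) above the lowest.

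Within libraries 91-100 most members put the libraries in much the same order, and within libraries 1 to 90 much less so. Across pairs of members Spearman's rho over the 10 libraries had a median of 0.976 among mitosis genes (0.830 to 1.0), 0.867 among replication genes (0.285 to 1.0) and 0.952 between the lists. Over all pairs of kept genes in those 10 libraries the median was 0.006, and over pairs of the 1937 kept genes at least 2-fold higher there it was 0.806. A rho of 0.9 or more was reached by 97.3% of the mitosis pairs and 44.9% of the replication pairs, beside 39.8% of the pairs of those 1937 genes and 2.83% of all pairs. Over libraries 1 to 90, the median was 0.563 among mitosis genes (0.010 to 0.870), 0.135 among replication genes (-0.326 to 0.903) and 0.192 between the lists, beside -0.001 over all pairs of kept genes. Of the 78 replication pairs 20 were below 0 in libraries 1 to 90, the lowest for Mcm7 with E2f1, and of the 300 mitosis pairs 0 were. These values describe libraries that share depth scaling and may share strains, and they carry no p-value.

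**Figure D4:**
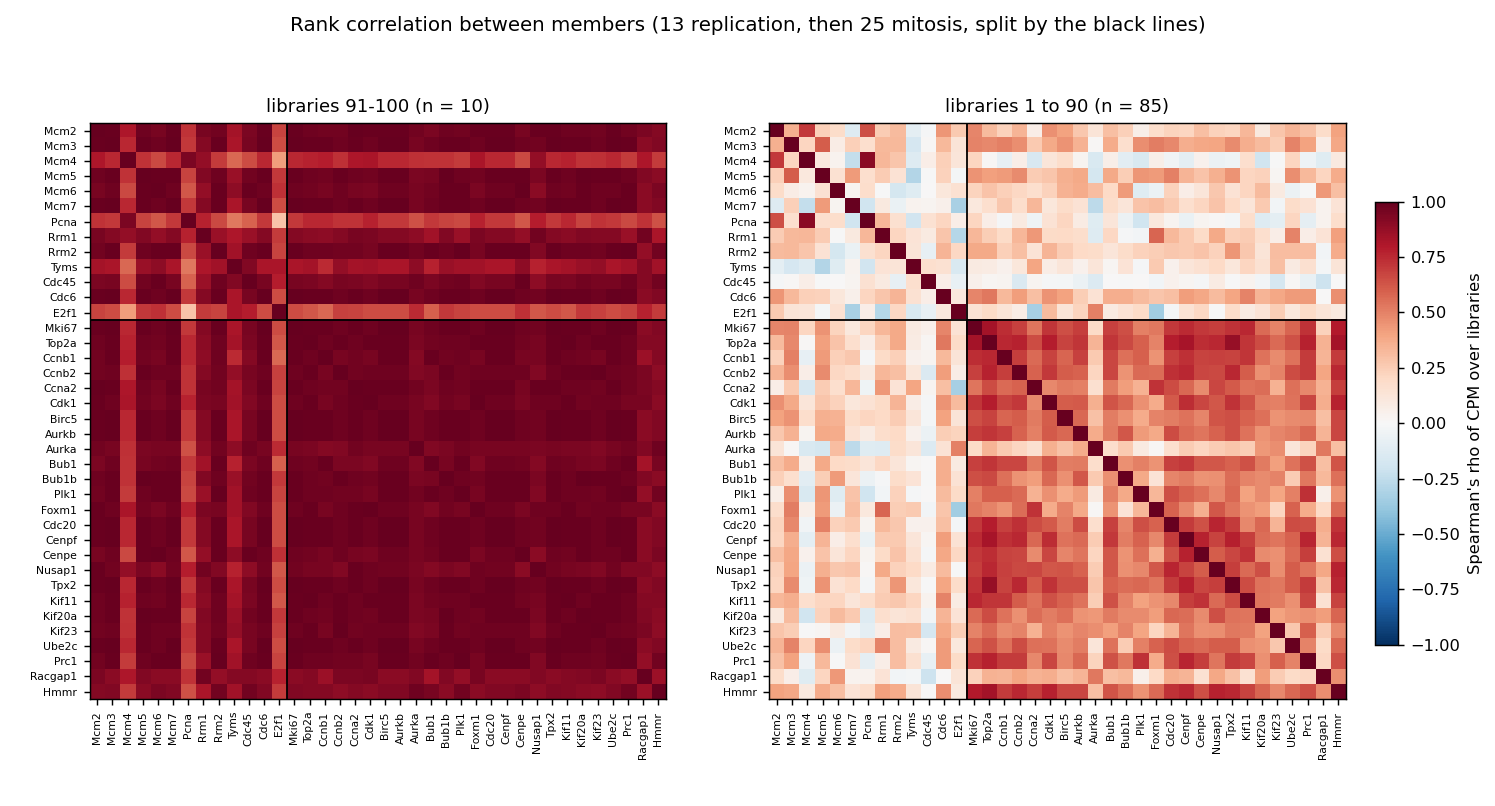
Spearman's rho of CPM between every pair of members, over the 10 libraries 91-100 on the left and the 85 libraries 1 to 90 on the right. Black lines split the 13 replication genes from the 25 mitosis genes. The left map is nearly uniform (median 0.976 within mitosis), with Mcm4, Pcna, Tyms and E2f1 paler, and on the right the mitosis block (median 0.563) stands out against the replication block (median 0.135).

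Within libraries 1 to 90 the replication genes fell into smaller sets. Mcm4 and Pcna had a rho of 0.903, Mcm2 with Mcm4 0.706 and Mcm2 with Pcna 0.643, and Mcm3 with Mcm5 0.605. Mcm5 with Mcm7 had 0.423, but Mcm4 with Mcm7 -0.241. Cdc45 and Tyms went with neither list, with median rhos with the mitosis genes of -0.00418 and 0.119. Of the mitosis genes Aurka and Racgap1 stood furthest from the rest, at median rhos of 0.254 and 0.332 with the other mitosis genes, against 0.716 for Top2a, 0.687 for Mki67 and 0.684 for Cenpf. Those 2 were also among the 3 mitosis genes under 2-fold between the sets.

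Ranked by rho with Mki67 over libraries 1 to 90, the nearest gene of all kept genes was Top2a (0.834), and the nearest members after it were Hmmr (0.795), Kif11 (0.756), Cenpf (0.749) and Ccnb1 (0.739). Aurkb, Bub1 and Cdc6, too low for the filter there, were not ranked. Of the mitosis members ranked, 20 of 22 were among the 100 genes nearest to Mki67, and of the replication members 4 of 12: Mcm3 (0.496), Mcm2 (0.488), Mcm5 (0.446) and Rrm2 (0.376). Among genes outside the 38, the 10 nearest were Nek2 (0.815), Ckap2l (0.811), Spag5 (0.758), Pbk (0.753), Ect2 (0.703), Fignl1 (0.697), Iqgap3 (0.693), Anln (0.682), Uhrf1 (0.666) and Dtl (0.642). Pbk, a mitotic kinase, was the only one of these 10 with a lower median in libraries 91-100, 1.07 CPM against 1.12 CPM in libraries 1 to 90.

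Further genes of both processes were taken from lists made with the members. Of 28 other replication genes 12 had medians at least 2-fold higher in libraries 91-100 and 0 at least 2-fold lower, with a median ratio of 1.70. Of all 15766 kept genes 12.3% were at least 2-fold higher and 475 at least 2-fold lower. The count covers all 28 of that list, of which 25 passed the filter. The largest ratio was that of Uhrf1, which keeps DNA methylation through replication, at 10.9, with 0.675 to 39.3 CPM and a median of 9.42 in libraries 91-100, against 0.145 to 5.74 and a median of 0.865 in libraries 1 to 90. The smallest was that of Dut, the dUTPase gene, at 0.871. Of 24 other mitosis genes measured 17 were at least 2-fold higher and 1 at least 2-fold lower, with a median ratio of 3.09. Of these 24, 21 passed the filter, and Sgo1 and Knl1 of that list were not analysed here. Cep55, which acts in the final cut between daughter cells, had the largest ratio, 10.1, with 0.270 to 10.7 CPM in libraries 91-100 and 0 to 2.13 CPM in libraries 1 to 90. Spc25, a kinetochore gene, was the exception: it had 27.8 to 86.8 CPM with a median of 70.95 in libraries 91-100, against 15.5 to 353 with a median of 162 in libraries 1 to 90, and 0 of the 10 libraries were above that median.

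Mki67 and Mcm5 were then set against each other and against 7 marker genes over libraries 1 to 90, 15 relations in all, by permutation tests of 100000 resamples, two-sided and adjusted over the 15 by Benjamini-Hochberg. Some libraries may share a strain and so be related, so these p-values measure the spread between libraries and may be too small. Mki67 and Mcm5 were higher in the same libraries, with a rho of 0.446 (p = 5e-05, adjusted p = 0.00075) and a Pearson's r of 0.452 (p = 2e-05, adjusted p = 0.00015), and r was 0.349 without libraries 74 and 90. Mki67 with the insulin gene Ins2 had a rho of 0.285 (p = 0.00823, adjusted p = 0.0247) and an r of 0.195 (p = 0.0747, adjusted p = 0.109), or 0.252 without the 2 libraries farthest from the median of Ins2. Mki67 passed with none of the other 6 markers by rho: Ptprc 0.111 (adjusted p = 0.419), the macrophage gene Csf1r 0.00465 (0.967), the B cell gene Cd79a -0.0132 (0.967), the endothelial gene Pecam1 0.0459 (0.844), Col3a1 -0.0277 (0.925) and the acinar gene Cpa1 -0.243 (0.0664). By r none of these 6 passed either, the smallest adjusted p being 0.0559 for Ptprc.

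Mcm5 had relations with markers that Mki67 did not pass. Its rho with Col3a1 was 0.364 (p = 0.00087, adjusted p = 0.00652) and its r 0.438 (p = 4e-05, adjusted p = 0.00015), and with Csf1r the rho was 0.286 (p = 0.00814, adjusted p = 0.0247) and r 0.475 (p = 2e-05, adjusted p = 0.00015), with r at 0.371 (Col3a1) and 0.302 (Csf1r) without the 2 libraries farthest from the marker's median. Without library 90 the Csf1r relation no longer passed (rho 0.260, adjusted p = 0.0527). Mcm5 with Cd79a had a rho of 0.339 (p = 0.00141, adjusted p = 0.00705) and an r of 0.269 (p = 0.0123, adjusted p = 0.0308), with r at 0.390 without the 2 farthest libraries. Per length Cd79a had a median of 5.55 CPM per kb of exon in libraries 1 to 90, against 0.0130 to 0.134 CPM per kb of the other 5 B cell markers there. Mcm5 passed by r alone with Ptprc (r 0.441, adjusted p = 0.00015, rho 0.195, adjusted p = 0.143) and with Ins2 (r -0.297, adjusted p = 0.0171, rho -0.125, adjusted p = 0.38), and without the 2 farthest libraries these r were 0.373 and -0.224. Neither direction held in both parts of the numbering: within libraries 1 to 50 the rho was -0.00695 with Ptprc and 0.0281 with Ins2, each opposite in sign to that over libraries 1 to 90. It passed by neither with Pecam1 (rho 0.189) or Cpa1 (rho -0.188). Whether the relations of Mki67 and of Mcm5 with a marker differ was not tested. Of the 5 relations that passed by rho, that of Mki67 with Mcm5 also passed within libraries 1 to 50 (rho 0.462, adjusted p = 0.0168) and within libraries 51 to 90 (rho 0.502, adjusted p = 0.0282). The 3 of Mcm5 with Col3a1, Csf1r and Cd79a passed in libraries 51 to 90 (rho 0.469, 0.424 and 0.434) and not in libraries 1 to 50 (0.207, 0.170 and 0.147). That of Mki67 with Ins2 passed in neither (0.326 in libraries 1 to 50, 0.189 in libraries 51 to 90). Mcm5 ran from 4.31 to 9.70 CPM in libraries 66 to 75 and from 2.35 to 7.01 in libraries 76 to 85. In the same runs Col3a1 had 42.0 to 112 and 18.8 to 34.2 CPM, Csf1r 12.2 to 29.0 and 7.15 to 21.5, and Cd79a 6.01 to 26.3 and 1.32 to 17.0. How far such differences between runs of library numbers carry the rhos of libraries 51 to 90 was not tested.

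Within libraries 91-100 the order of the libraries by Mki67 was that of Ptprc, with a rho of 1.0, and Mcm5 had 0.988 with Ptprc and 1.0 with Csf1r. The rho of Mki67 was 0.964 with Cd79a, 0.988 with Csf1r, 0.964 with Pecam1 and 0.927 with Col3a1, and -0.709 with Cpa1 and -0.927 with Ins2. With 10 libraries these are given as a description. Library 97 had 92.2 CPM of Mki67 and 509 CPM of Ptprc, and library 94, the lowest in both, had 5.94 CPM of Mki67 and 13.8 CPM of Ptprc. Leukocyte, macrophage, fibroblast and endothelial markers thus moved with Mki67 here. Over pairs of the kept genes at least 2-fold higher in libraries 91-100 the median rho was 0.806. Whether any of these cells account for the level of the division genes was not tested.

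**Figure D5:**
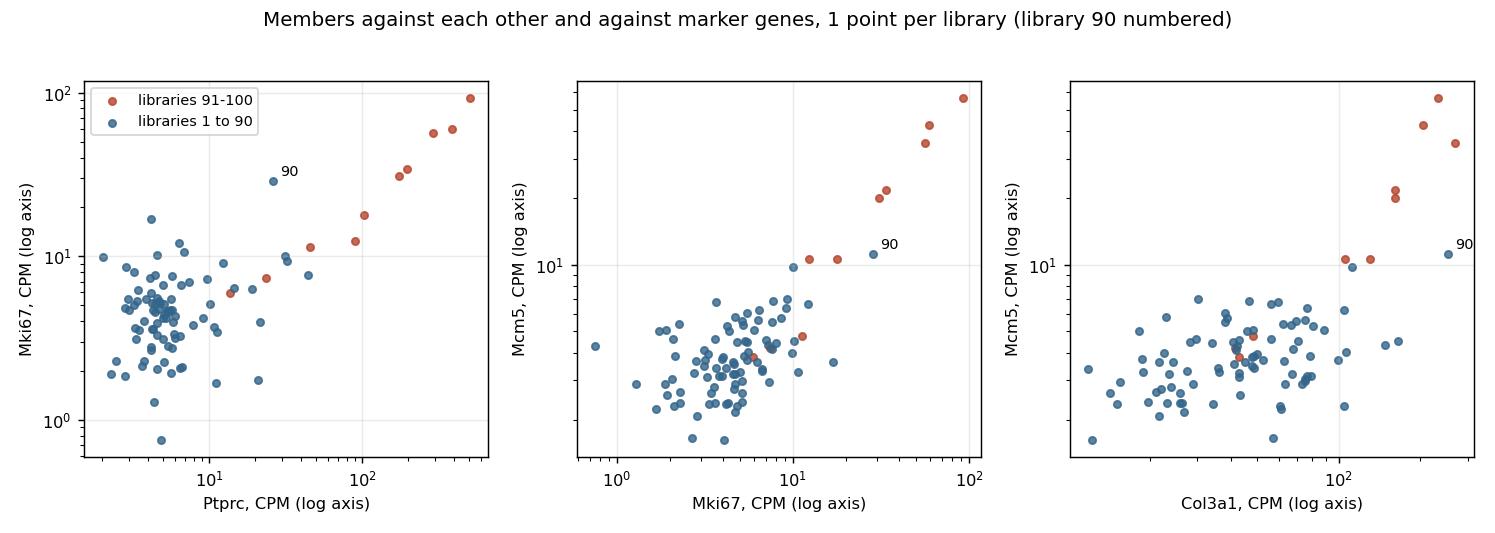
Mki67 against Ptprc, Mcm5 against Mki67 and Mcm5 against Col3a1, in CPM on log axes, 1 point per library, with libraries 91-100 in red, libraries 1 to 90 in blue and library 90 numbered. The red points line up with Ptprc (rho 1.0), while the blue ones spread around Mki67 levels near 4.61 CPM with a rho of 0.111, and library 90 lies above them.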

How the data were processed

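Islet mRNA was sequenced in 95 libraries from poly(A)-selected RNA, per the labels' protocols. The authors deposited estimated counts with no normalization for 20638 genes, 67.7% of them whole to within 1e-06, and variance-stabilised values on a scale close to log2. The submitters' processing notes name GRCm38 and DESeq2 without a role; the aligner, counter, use of strand and annotation are not given in the sources used here. TMM factors (0.463 to 1.36) came from edgeR 4.0.16 in R 4.3.3, and these, CPM and rhos used the estimated counts unrounded. Dispersions came from edgeR with the counts rounded to whole numbers. Kept genes had 1 CPM or more in at least 10 libraries. Levels per kb use exon lengths of GENCODE M21, log2 CPM a prior count of 2. The closest of 4465 pairs of libraries had a chi-square of 8.09 per degree of freedom, so each was counted separately. Depth was 16411809 to 34357253 counts; limits for values at 0 cover counting error only. Members, split and lists were chosen with earlier results of these data known. All 38 members are named, in full for the extremes of level, range and ratio in each list and for Mki67, Top2a, Mcm5 and Pcna. The tests were checked on simulated data. Alternatives were DESeq2 1.42.0 size factors and dispersions, totals without cell type lists, no filter, a prior count of 0.5, the deposited log2-like values, and subsets of libraries.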

Additional observations from a re-analysis of the deposited data

How the results depend on the processing

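Within libraries 1 to 90, 4 members were above a coefficient of 50% without the 10 libraries with the lowest totals, against 19.0% of all kept genes, as without library 90, which is among those 10. With the deposited variance-stabilised values, a scale that compresses low levels, 5 members were 2-fold higher in libraries 91-100, against 6.15% of all kept genes. The count of members with every library of 91-100 above the median was 22 without the 10 lowest totals, library 94 among them, and 19 without library 94 alone, each against 17.9% of all kept genes. In libraries 1 to 50 alone 1 relation passed (Mki67 with Mcm5), and in libraries 51 to 90 alone 5 did. The median rho stayed between 0.0928 and 0.187 among replication members, 0.542 and 0.630 among mitosis members and 0.161 and 0.290 between them. By rho, relations that had not passed changed sign in some subsets: Mki67 with Cd79a had 0.0561 without the 10 lowest totals, 0.0851 in libraries 51 to 90 and 0.0225 without library 90; with Csf1r -0.0502 in libraries 1 to 50 and -0.0313 without library 90; with Pecam1 -0.0117 in libraries 1 to 50; with Col3a1 0.0626 in libraries 51 to 90. Mcm5 had -0.00695 with Ptprc and 0.0281 with Ins2 in libraries 1 to 50, though both had passed by r over libraries 1 to 90. The cause was not tested. Over the members' log2 ratios and alternatives, 220 values moved by less than 1.5-fold and 46 by more, with the stabilised values or without libraries 97, 99 and 100, and 0 of the ratios past 2-fold changed direction. No paired analysis was possible because the labels give no groups and no replicate numbers. At medians of 9 to 12 counts, Bub1, Cdc6 and Aurkb are limited by depth. Leaving out library 90 or any of libraries 91 to 100 was added after seeing the data.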
